A study of Mus musculus with 4 samples.

Results

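The 10 genes described here build the acrosome, the enzyme-filled vesicle that caps the nucleus of the sperm head. They are Gopc, Pick1, Agfg1 and Spata16, which act in vesicle transport out of the Golgi apparatus; Spaca1 and Dpy19l2, which hold the vesicle to the nucleus; and Acrbp, Zpbp, Zpbp2 and Acrv1, which encode contents of the vesicle. They were chosen by name, as the rows of the deposited table whose gene symbol equals one of these 10, and all 10 were found among its 25965 listed genes. The samples are round spermatids, the haploid male germ cells in which the acrosome forms, sorted by flow cytometry from testes of ICR mice and read with the Smart-seq2 protocol. There are 2 libraries of genotype Wfdc15a-/-, labelled knockout, and 2 of genotype Wfdc15a+/-, which serve as controls and themselves carry 1 altered allele. The labels give no age, no number of animals or cells behind a library, no gate of the sort and no description of the altered allele. Nothing in them says that replicates came from separate animals, and p-values therefore reflect how far these particular libraries scatter, which can be a technical scatter.

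In the round spermatid, small vesicles bud from the Golgi apparatus, travel to one pole of the nucleus and fuse into a single granule. The granule then flattens over the nucleus on a plate of filaments, the acroplaxome, that is anchored in the nuclear envelope. In mice, loss of Gopc, Pick1, Agfg1, Spaca1 or Dpy19l2 gives round-headed sperm without a normal acrosome, a state called globozoospermia.

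The values are RPM, the reads of a gene scaled by the total of its library, without adjustment for gene length. The steps between values gave totals of 21160061 and 11268909 reads for Wfdc15a-/- libraries 1 and 2, and 5774112 and 33853604 reads for Wfdc15a+/- libraries 1 and 2. Across tested genes the log2 values correlated at r = 0.952 between the Wfdc15a-/- libraries, at 0.921 between the Wfdc15a+/- libraries and at 0.917 to 0.929 across genotypes (description only). Wfdc15a itself was at 82.6 and 59.5 RPM in Wfdc15a-/- libraries, against 121 and 85.2 RPM in Wfdc15a+/- libraries (limma adjusted p = 0.647; log2 difference -0.53, and -0.79 to -0.28 on leaving out 1 library), so its transcript was present in every library, and gene-level sums do not tell which stretch was altered. All 10 round spermatid markers were read in all libraries, with sums of 2748 and 2784 RPM in Wfdc15a-/- libraries and 2144 and 3053 RPM in Wfdc15a+/- libraries. The sum of 10 elongating spermatid markers was 4636 and 4310 RPM in Wfdc15a-/- libraries, against 4314 and 7994 RPM in Wfdc15a+/- libraries. Of these, 6 of the 10 lay below both Wfdc15a+/- libraries, against 15.0% of all tested genes. Their median log2 difference was -0.59, with 2 positive, against 56.1% of all tested genes. The sum of 10 macrophage markers was 296 and 92.0 RPM in Wfdc15a-/- libraries, against 24.2 and 21.7 RPM in Wfdc15a+/- libraries. Of these, 9 of 10 lay above both Wfdc15a+/- libraries, against 23.5% of all tested genes, and none was at 0 in both libraries of either genotype. Sums of 8 Leydig cell markers were 38.1 and 19.3 RPM in Wfdc15a-/- libraries, against 6.58 and 3.19 RPM in Wfdc15a+/- libraries, with Hsd3b6 at 0 in both Wfdc15a+/- libraries. Sums were also apart for 10 spermatogonial markers, at 91.2 and 77.7 RPM in Wfdc15a-/- libraries, against 61.0 and 53.7 RPM in Wfdc15a+/- libraries. The 9 tested ones had a median log2 difference of 1.03, with 8 positive. The sum of 10 Sertoli cell markers was 55.2 and 50.9 RPM in Wfdc15a-/- libraries, against 29.6 and 43.7 RPM in Wfdc15a+/- libraries, with Amh at 0 in all 4 and a median log2 difference of -0.01 over the 7 tested. The sum of 10 spermatocyte markers overlapped, at 436 and 677 RPM in Wfdc15a-/- libraries, against 645 and 333 RPM in Wfdc15a+/- libraries. The part of these marker differences in the results below was not tested. In such pooled cells, fewer cells of a type and less RNA per cell cannot be told apart.

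Together the acrosome biogenesis genes held a similar share of the reads in every library. Their sum was 4435 and 4488 RPM in Wfdc15a-/- libraries, against 4577 and 4148 RPM in Wfdc15a+/- libraries, which is 0.443% and 0.449% against 0.458% and 0.415% of all reads, so the genotypes overlapped. Spaca1, Acrv1 and Gopc had higher values in both Wfdc15a-/- libraries than in either Wfdc15a+/- library, and 0 of the 10 lay below. None of the 10 passed the test, limma on log2 RPM with Benjamini-Hochberg adjustment over all 15888 tested genes. Of all tested genes 0.0% passed, with 0 calls also from voom weights on the recovered reads. Without adjustment, 1283 genes had p under 0.05, which is 8.08% of those tested (1961 genes with voom), and 0 of the 10 members were among them (1 with voom, Spaca1).

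**Figure D1:**
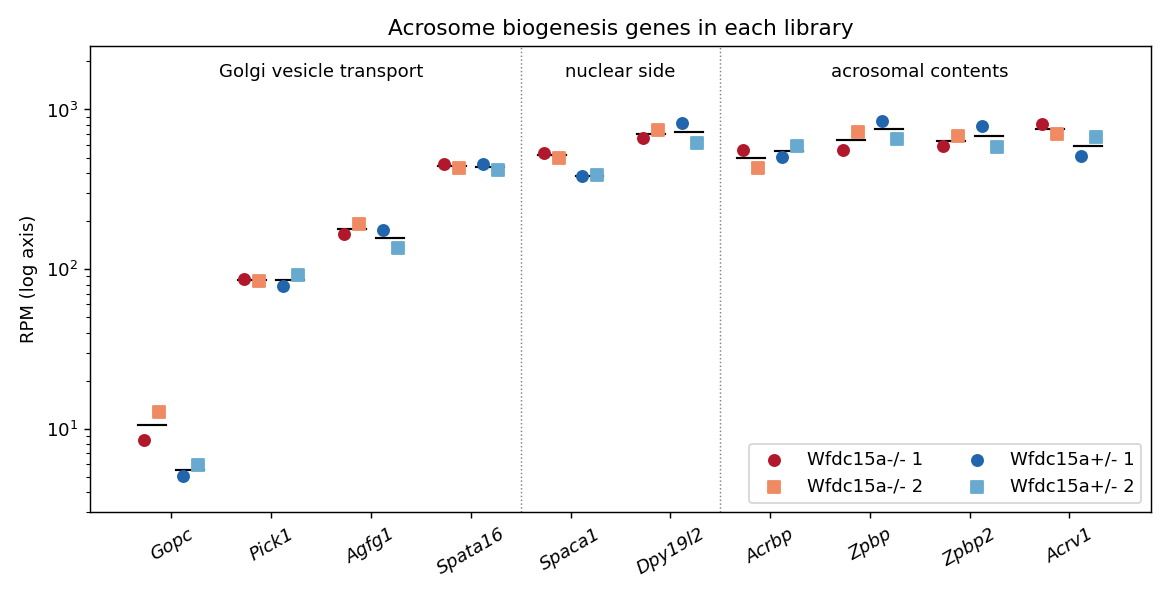
RPM on a log axis (vertical) of the 10 genes in the 2 Wfdc15a-/- libraries (red shades) and the 2 Wfdc15a+/- libraries (blue shades), with genes grouped by role and short bars at the mean of each genotype. Spaca1, Acrv1 and Gopc have both red points above both blue points, and Gopc lies far below the other genes at 5.02 to 12.7 RPM.

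Both Wfdc15a-/- libraries lay above both Wfdc15a+/- libraries for 3 of the 10 members, against 23.5% of all tested genes, and below both for 0 of 10, against 15.0%. With so few genes these counts are close to the background. The median log2 difference of the 10 was 0.02, with 6 positive and 4 negative. Over all tested genes the median was 0.07, with 56.1% positive. With median-ratio scaling the median of the 10 was -0.04 with 4 positive, and with quantile normalization it was 0.05 with 7 positive, so its sign depended on the scaling. An exact permutation test of 2 against 2 libraries cannot give a two-sided p below 0.333, the value it gave for Spaca1, Acrv1 and Gopc, so it cannot pass a threshold of 0.05 here.

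The genes of Golgi vesicle transport differed widely in level. Gopc encodes a PDZ-domain protein of the Golgi apparatus that is also made in many tissues outside the testis. Its gene (chromosome 10, 52337024 to 52382124, minus strand; mm10 here and below) was the least abundant of the 10. Its level was 8.51 and 12.7 RPM in Wfdc15a-/- libraries, against 5.02 and 5.94 RPM in Wfdc15a+/- libraries. The genotypes did not overlap, and the mean was 1.93-fold higher in Wfdc15a-/- libraries. These values rest on 180 and 143 reads in Wfdc15a-/- libraries and on 29 and 201 reads in Wfdc15a+/- libraries, and the Wilson 95% interval of the thinnest, in Wfdc15a+/- library 1, ran from 3.50 to 7.21 RPM (counting error only). The log2 difference was 0.93 (SE 0.44, 95% interval -0.05 to 1.91, limma adjusted p = 0.626), and it did not pass.

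Pick1 encodes a protein with a PDZ and a membrane-bending BAR domain that binds the Gopc protein. Its gene lies on chromosome 15, 79229173 to 79256674, plus strand. It was at 86.5 and 83.8 RPM in Wfdc15a-/- libraries, against 77.9 and 91.8 RPM in Wfdc15a+/- libraries. Both Wfdc15a-/- values fell between the Wfdc15a+/- values, and the log2 difference was 0.01 (SE 0.25, 95% interval -0.55 to 0.56). The number of Pick1 reads per Gopc read, which needs no scaling between libraries, was 10.2 and 6.60 in Wfdc15a-/- libraries, against 15.5 and 15.5 in Wfdc15a+/- libraries. These gene-to-gene ratios were chosen after the values were seen and are given without a test. The share of all gene pairs whose ratio does not overlap between genotypes is not given here.

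Agfg1, also known as Hrb, encodes a protein of the outer face of the vesicles that fuse into the acrosome (chromosome 1, 82839483 to 82896275, plus strand). It was at 166 and 191 RPM in Wfdc15a-/- libraries, against 175 and 136 RPM in Wfdc15a+/- libraries. The genotypes overlapped, with Wfdc15a+/- library 2 the lowest (log2 difference 0.20, SE 0.24, 95% interval -0.32 to 0.73, limma adjusted p = 0.870). Spata16 encodes a testis protein of the Golgi apparatus and its vesicles, altered in some men with round-headed sperm (chromosome 3, 26637620 to 26983212, plus strand). It was at 458 and 429 RPM in Wfdc15a-/- libraries, against 457 and 417 RPM in Wfdc15a+/- libraries. It was the most even of the 10: its highest library was 1.10-fold its lowest, and 97.2% of the 4043 tested genes averaging 50 RPM or more had a wider range. Pick1 came next, with 1.18-fold, beside a median of 1.42-fold over those 4043 genes. The 95% interval of the Spata16 log2 difference ran from -0.41 to 0.46.

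Of the pair of the nuclear side, Spaca1 did not overlap between the genotypes and Dpy19l2 did. Spaca1 encodes a protein of the inner acrosomal membrane that is needed for the plate between acrosome and nucleus (chromosome 4, 34024874 to 34050191, minus strand). It was at 535 and 496 RPM in Wfdc15a-/- libraries, against 384 and 387 RPM in Wfdc15a+/- libraries. The lowest Wfdc15a-/- value was 109 RPM above the highest Wfdc15a+/- value, and Wfdc15a+/- libraries 1 and 2 were closer to each other for Spaca1 than for any of the other members on the log2 scale. The mean was 515 ± 27.9 RPM in Wfdc15a-/- libraries and 385 ± 1.81 RPM in Wfdc15a+/- libraries (SD, n = 2 each), a 1.34-fold difference. The log2 difference was 0.42 (SE 0.19, 95% interval -0.01 to 0.85, limma adjusted p = 0.624, unadjusted p = 0.0555). It did not pass, and 28.5% of all tested genes had a larger positive difference.

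Dpy19l2 encodes a protein of the inner nuclear membrane that anchors the acroplaxome (chromosome 9, 24557048 to 24696293, minus strand). It was at 663 and 745 RPM in Wfdc15a-/- libraries, against 828 and 618 RPM in Wfdc15a+/- libraries. The Wfdc15a-/- values lay inside the range of the Wfdc15a+/- values, and the log2 difference was -0.03 (SE 0.21, 95% interval -0.48 to 0.43). Its sign turned with quantile normalization (0.0095) and with voom (0.021). The ratio of Spaca1 to Dpy19l2 was 0.807 and 0.665 in Wfdc15a-/- libraries, against 0.464 and 0.626 in Wfdc15a+/- libraries, so the genotypes did not overlap but the closest pair, 0.665 and 0.626, was near. The small gene Cypt4, expressed in all libraries at 154 to 287 RPM, lies within Dpy19l2 on the opposite strand and shares none of its exons. The protocol keeps no strand, and the authors' rule for reads of overlapping genes is not known here.

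The start regions of the 10 genes were searched on both strands for 4 short motifs. They were TGACG, the half-site of the cAMP response element that CREM and related factors bind, and TGACGTCA, the full element, which contains it. TATAAA, the core of the TATA box, was searched as well, and so was the CCAAT box. The windows ran from 250 bases before to 50 bases after each RefSeq start (GRCm38.p6), and all 10 members matched a window, 12 windows in all because Spaca1 and Pick1 have a pair of starts each. TGACG was in 7 of the 12 member windows, of 6 genes (Spaca1, Dpy19l2, Acrbp, Zpbp2, Gopc and Pick1), and in 20.8% of all 32851 windows. TGACG contains a CpG, and the member windows had a median of 59.3% G and C and an observed over expected CpG ratio of 0.614, against 52.7% and 0.384 over all windows. The part of this base composition in the motif share was not tested. The full element was in 0 member windows and 1.79% of all windows. The TATA box core was in 0 member windows and 13.6% of all. The CCAAT box was in 4 of the 12 member windows (Gopc, Pick1, Spata16 and Zpbp) and in 37.4% of all. Spaca1 was the only one of the 10 with more than 1 TGACG in a window, on the gene's own strand. These matches lay at -69 and -59 from 1 of its starts and at -67 and -57 from the other. The Spaca1 windows nearly coincide, so the same matches count in both. The stretch that holds them lies inside the first exon of a longer transcript in GENCODE M21. A match is a description of letters and not a bound site. The 3 sequences below belong to the genes whose genotypes did not overlap, 5′ to 3′ on the gene's strand, with matches to TGACG in capitals, and likewise matches to the CCAAT box, each in its reverse complement where the match is on the other strand. Acrv1 holds none. They cover 30 bases around the Spaca1 matches (chr4:34050113-34050142, minus strand) and the 250 bases before the starts of Acrv1 (chr9:36692970-36693219, plus strand) and Gopc (chr10:52382125-52382374, minus strand).
Spaca1: gaatggggTGACGcgcggTGACGcctcaat
Acrv1: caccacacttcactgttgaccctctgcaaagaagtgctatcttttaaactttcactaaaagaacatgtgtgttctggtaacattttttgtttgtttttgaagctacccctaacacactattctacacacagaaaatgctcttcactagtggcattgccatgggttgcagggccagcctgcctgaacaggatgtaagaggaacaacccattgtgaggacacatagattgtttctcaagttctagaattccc
Gopc: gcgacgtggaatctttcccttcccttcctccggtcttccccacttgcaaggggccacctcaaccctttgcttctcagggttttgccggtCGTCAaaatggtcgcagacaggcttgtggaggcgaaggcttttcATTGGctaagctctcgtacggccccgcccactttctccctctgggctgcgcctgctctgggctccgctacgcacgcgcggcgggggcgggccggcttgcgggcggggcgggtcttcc
These starts differ in base composition. The Acrv1 window had 43.3% G and C and 1 CpG, the lowest of the members on both counts, while the Gopc window had 65.0% and 26 CpG and the Spaca1 windows 63.0% and 16 CpG.

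Acrv1 was the second abundant member with non-overlapping genotypes. It encodes SP-10, a protein of the acrosomal matrix that is made from the round spermatid stage on (chromosome 9, 36693220 to 36698837, plus strand). It was at 809 and 700 RPM in Wfdc15a-/- libraries, against 510 and 668 RPM in Wfdc15a+/- libraries. The genotypes were 32.4 RPM apart at their closest, and Wfdc15a+/- library 1 stood lowest. The log2 difference was 0.37 (SE 0.21, 95% interval -0.09 to 0.82, limma adjusted p = 0.664). It was 0.17 without Wfdc15a+/- library 1 and 0.56 without Wfdc15a+/- library 2.

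Acrbp encodes the protein that binds proacrosin and helps to pack it into the granule (chromosome 6, 125049689 to 125063267, plus strand). It was at 560 and 432 RPM in Wfdc15a-/- libraries, against 507 and 588 RPM in Wfdc15a+/- libraries. The genotypes overlapped (log2 difference -0.15, SE 0.21, 95% interval -0.62 to 0.31), and Wfdc15a-/- library 2 was the lowest. The ratio of Acrv1 to Acrbp was 1.45 and 1.62 in Wfdc15a-/- libraries, against 1.01 and 1.13 in Wfdc15a+/- libraries, without overlap. The values of Acrbp, Pick1 and, to a smaller extent, Zpbp carry a further uncertainty from exon bases shared with other gene models. GENCODE M21 has a gene model, Gm44597, that shares 975 of the 3277 bases of the Acrbp exons (29.8%). Ing4, upstream on the same strand, overlaps the span of Acrbp in the deposited table but shares none of its exon bases. Another model, Gm49486, shares 1222 of the 6573 exon bases of Pick1 (18.6%).

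Zpbp and Zpbp2 encode related proteins of the acrosomal matrix that were named for binding to the zona pellucida, the coat of the egg. Both lie on chromosome 11, Zpbp at 11279626 to 11462408 (minus strand) and Zpbp2 at 98551097 to 98558665 (plus strand). Zpbp was at 558 and 721 RPM in Wfdc15a-/- libraries, against 849 and 658 RPM in Wfdc15a+/- libraries. The genotypes overlapped, and Zpbp had the most negative difference of the 10 (log2 difference -0.24, SE 0.22, 95% interval -0.71 to 0.24, limma adjusted p = 0.813). Zpbp2 was at 592 and 678 RPM in Wfdc15a-/- libraries, against 785 and 579 RPM in Wfdc15a+/- libraries, also with overlap (log2 difference -0.09, SE 0.21, 95% interval -0.56 to 0.38). The longest stretch that transcripts of the pair share is 11 bases. Of the Zpbp exons, 223 bases (5.25%) overlap Spata48 on the opposite strand. The ratio of Zpbp2 to Zpbp was 1.06 and 0.941 in Wfdc15a-/- libraries, against 0.924 and 0.880 in Wfdc15a+/- libraries.

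**Figure D2:**
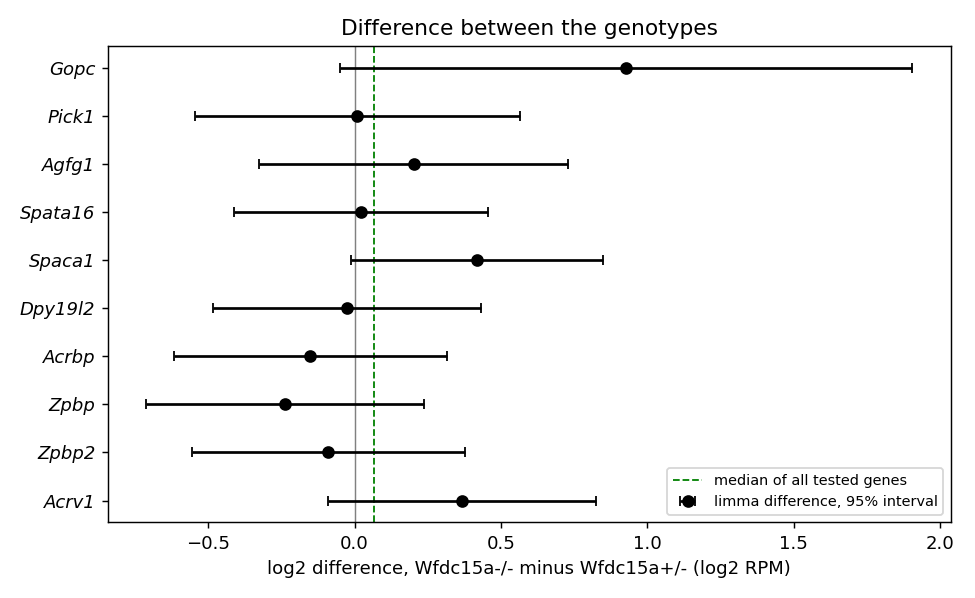
Log2 difference (Wfdc15a-/- minus Wfdc15a+/-, horizontal axis) of each gene from limma on log2 RPM, with its 95% confidence interval, beside the median of all tested genes (dashed, 0.07). Every interval includes 0, and the intervals of 9 of the 10 genes lie between -1 and 1, Gopc being the exception.

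The 95% intervals limit what the data can show. For 9 of the 10 genes they lay within -1 to 1 on the log2 scale, that of Gopc reaching 1.91. For 7 of the 10 the estimate itself was below 0.25 in size. A p that misses the threshold does not show that the genotypes have equal levels.

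Among themselves the members followed more than one pattern over the libraries. Zpbp, Zpbp2 and Dpy19l2 were highest in Wfdc15a+/- library 1, 0.30, 0.26 and 0.22 above their own 4-library mean on the log2 scale. Acrv1, Spaca1, Gopc and Pick1 were lowest in that library, where Acrv1 was at -0.38. Wfdc15a+/- library 1 is the library with the fewest reads, and the part of its depth was not tested. It was the highest library for 30.9% and the lowest for 28.6% of all tested genes, so 3 and 4 of the 10 members are near the background. For Zpbp, the order from high to low was Wfdc15a+/- library 1, Wfdc15a-/- library 2, Wfdc15a+/- library 2 and Wfdc15a-/- library 1. Zpbp2 and Dpy19l2 shared an order, with Wfdc15a+/- library 1 and Wfdc15a-/- library 2 above Wfdc15a-/- library 1 and Wfdc15a+/- library 2, which follows the totals from the fewest to the most reads. The share of all tested genes with this order is not given here, and the part of depth in it was not tested.

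**Figure D3:**
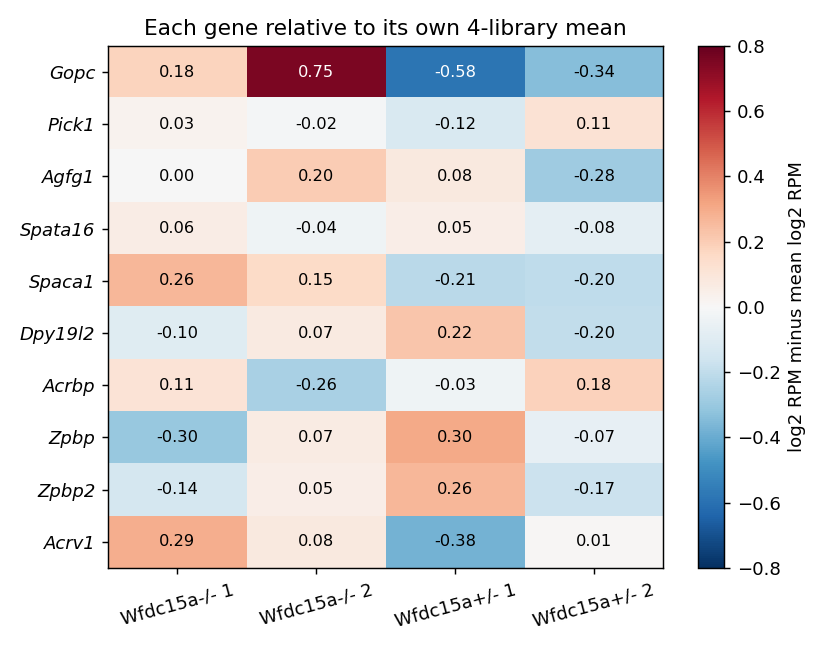
Log2 RPM of each gene (rows) in each library (columns, Wfdc15a-/- left) minus the mean of that gene over the 4 libraries; red is above and blue below the mean, and each cell prints its value. Zpbp, Zpbp2 and Dpy19l2 are red in Wfdc15a+/- library 1, where Acrv1 (-0.38), Spaca1 and Gopc are blue.

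Compared per length, Agfg1, Pick1 and Gopc lay below the other genes, and Gopc was lowest by a wide margin. Divided by the kilobases of their merged exons in GENCODE M21, the means over the 4 libraries were 391 RPM per kilobase for Zpbp2, 282 for Spaca1, 209 for Spata16, 207 for Dpy19l2, 184 for Acrv1, 164 for Zpbp and 159 for Acrbp. Agfg1 followed at 19.9, Pick1 at 12.9 and Gopc at 0.734 RPM per kilobase. Zpbp2 was first and Spaca1 next in all 4 libraries, and neither overlapped its neighbour in this order, while Spata16, Dpy19l2, Acrv1, Zpbp and Acrbp overlapped along the order. Agfg1, Pick1 and Gopc were the 3 lowest, in that order, in every library. The deposited table and GENCODE M21 place an end of each of these 3 genes differently. Agfg1 ends at 82896275 in the former and at 82901182 in the latter. Gopc starts at 52337024 against 52335850, and Pick1 ends at 79256674 against 79249484. Their lengths may thus not match the bases that were counted. These 3 all act in vesicle transport, while Spata16, of the same role, stood with the genes of the granule and the nuclear side.

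The order of the genes depends on the length used. With the longest protein-coding transcript in place of merged exons, a choice added after the values were seen, Acrv1 (1101 bases in place of 3647) came first at 610 RPM per kilobase, before Zpbp2 at 417, Spaca1 at 376 and Acrbp at 277. Pick1, at 41.4, then lay above Agfg1, at 20.8, and Gopc stayed last at 1.86 RPM per kilobase. In each library, 7 of the 10 genes (all but Agfg1, Pick1 and Gopc) had more reads than at least 98.2% of the listed genes, before any adjustment for length. Gopc had more than 58.4% to 69.3% of them.

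**Figure D4:**
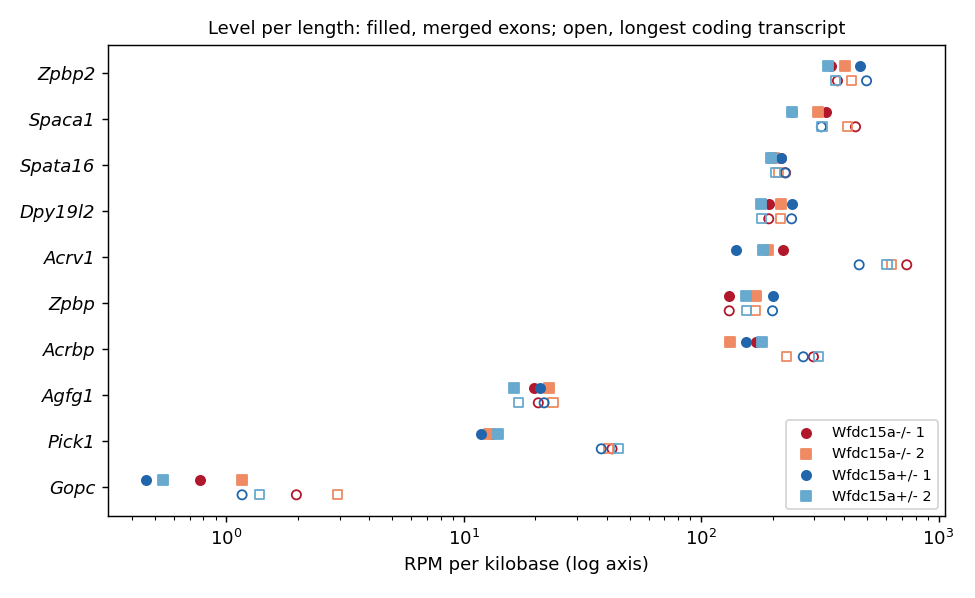
RPM per kilobase (log axis) of each gene in each library, with merged exons as the length (filled) and with the longest protein-coding transcript (open); Wfdc15a-/- libraries are in red shades and Wfdc15a+/- in blue. Agfg1, Pick1 and Gopc lie below the other 7 genes with either length, and Acrv1 moves from 184 to 610 on average.

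Other genes of the acrosome were described as 4 lists for comparison, and none of their 58 tested genes passed (limma, adjusted over all 15888 tested genes, of which 0.0% passed). Over all tested genes, both Wfdc15a-/- libraries lay above both Wfdc15a+/- libraries for 23.5% and below both for 15.0%. The log2 difference was positive for 56.1% of them. The 17 further genes of the acrosomal matrix and membrane had a median log2 difference of 0.11, with 11 positive, 5 above both Wfdc15a+/- libraries and 1 below. Their summed level was 7140 and 7373 RPM in Wfdc15a-/- libraries, against 6964 and 7118 RPM in Wfdc15a+/- libraries, so the genotypes were apart by a narrow margin. Cd46, which in mice is a protein of the acrosomal membrane, was at 30.8 and 46.8 RPM in Wfdc15a-/- libraries, against 18.2 and 16.3 RPM in Wfdc15a+/- libraries (log2 difference 1.14, SE 0.34, limma adjusted p = 0.470). Hyal5, a sperm hyaluronidase gene, had a log2 difference of 0.71 (adjusted p = 0.550) and Lyzl6, a lysozyme-like gene, one of 0.60 (adjusted p = 0.596). The Lyzl6 difference was 0.33 without Wfdc15a+/- library 1. Spink2, the inhibitor that keeps acrosin in check, was at 525 and 404 RPM in Wfdc15a-/- libraries, against 714 and 555 RPM in Wfdc15a+/- libraries (log2 difference -0.45, SE 0.22, limma adjusted p = 0.628), without overlap. It was -0.27 without Wfdc15a+/- library 1 and -0.26 without Wfdc15a-/- library 2.

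Of the 20 genes of Golgi and vesicle transport, 19 were tested (Rab3a was below the filter), with a median log2 difference of -0.03. Of these, 8 were positive, 2 lay above both Wfdc15a+/- libraries and 3 below. Vps13b, which encodes a lipid transfer protein of the Golgi apparatus, was at 135 and 216 RPM in Wfdc15a-/- libraries, against 304 and 234 RPM in Wfdc15a+/- libraries (log2 difference -0.64, SE 0.27, limma adjusted p = 0.596). Csnk2a2, a catalytic subunit of casein kinase 2 whose loss gives round-headed sperm in mice, was at 131 and 128 RPM in Wfdc15a-/- libraries, against 225 and 148 RPM in Wfdc15a+/- libraries (log2 difference -0.50, limma adjusted p = 0.639). The Csnk2a2 difference was -0.19 without Wfdc15a+/- library 1 and -0.80 without Wfdc15a+/- library 2, and that of Vps13b was -0.30 without Wfdc15a-/- library 1 and -0.98 without Wfdc15a-/- library 2. Golga2, the gene of the Golgi matrix protein GM130, and Vps54, a subunit of a tether that returns vesicles to the Golgi apparatus, had log2 differences of 0.50 and 0.98 (limma adjusted p = 0.713 and 0.732). That of Golga2 was 0.17 without Wfdc15a+/- library 1 and 0.83 without Wfdc15a+/- library 2. Vps54 rested on 60 and 40 reads in Wfdc15a-/- libraries and 9 and 56 reads in Wfdc15a+/- libraries.

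The 14 genes of the acroplaxome, the perinuclear theca and the nuclear envelope had a median log2 difference of 0.33. Of these, 13 were positive, 3 lay above both Wfdc15a+/- libraries and 0 below. Their summed level was 3834 and 3077 RPM in Wfdc15a-/- libraries, against 2072 and 3490 RPM in Wfdc15a+/- libraries, so it overlapped. Of the 14, 12 were lowest in Wfdc15a+/- library 1, against 28.6% of all tested genes. So were 9 of 10 round spermatid markers and 10 of 17 matrix and membrane genes. For Golgi transport genes it was 7 of 19, and for transcription regulators 2 of 8. The median of the 14 was 0.01 without Wfdc15a+/- library 1 and 0.74 without Wfdc15a+/- library 2. Actl9, an actin-like gene of the theca, was at 258 and 223 RPM in Wfdc15a-/- libraries, against 85.9 and 216 RPM in Wfdc15a+/- libraries (log2 difference 0.82, SE 0.36, limma adjusted p = 0.609). The Actl9 difference was 0.15 without Wfdc15a+/- library 1 and 1.48 without Wfdc15a+/- library 2. Ccin, which encodes calicin of the theca, and Fam209 (listed as 1700029J11Rik), whose protein binds Dpy19l2, overlapped between genotypes, with log2 differences of 0.78 and 0.51 (limma adjusted p = 0.626 and 0.674). Leaving out 1 library moved Ccin to between 0.23 (without Wfdc15a+/- library 1) and 1.34 (without Wfdc15a+/- library 2), and Fam209 to between 0.15 (without Wfdc15a-/- library 1) and 0.87 (without Wfdc15a-/- library 2). Sun3, a nuclear envelope gene, was at 204 and 173 RPM in Wfdc15a-/- libraries, against 123 and 149 RPM in Wfdc15a+/- libraries (log2 difference 0.47, limma adjusted p = 0.628).

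The 8 transcription regulators of round spermatid genes had a median log2 difference of 0.03, with 4 positive. Fhl5, a coactivator of CREM, was at 434 and 297 RPM in Wfdc15a-/- libraries, against 193 and 312 RPM in Wfdc15a+/- libraries, with overlap (log2 difference 0.55, limma adjusted p = 0.634). The Fhl5 difference was 0.20 without Wfdc15a+/- library 1, 0.27 without Wfdc15a-/- library 1 and 0.89 without Wfdc15a+/- library 2. Mybl1, a regulator of meiotic genes, had a log2 difference of 0.69 (adjusted p = 0.667), Rfx2, a factor of spermatid gene expression, one of -0.22 (adjusted p = 0.850) and Taf7l, a subunit of the general transcription machinery, one of 0.15 (adjusted p = 0.930), all by limma. The Mybl1 difference was 0.43 without Wfdc15a+/- library 2, and that of Rfx2 was -0.14 without Wfdc15a-/- library 2. With all 4 libraries in the fit, none of these passed. Without Wfdc15a+/- library 2, the log2 differences of Hyal5, Lyzl6, Actl9, Ccin and Fhl5 were 0.91, 0.88, 1.48, 1.34 and 0.89. Without Wfdc15a+/- library 1 they were 0.52, 0.33, 0.15, 0.23 and 0.20. Each of these fits takes its spread from the Wfdc15a-/- libraries alone and assumes that the lone Wfdc15a+/- library varies like them. Only the differences are therefore given here. These genes were named because they were among the 4 with the smallest p of their lists in these same data. The ones set side by side here were picked further by their outcome without Wfdc15a+/- library 2.

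**Figure D5:**
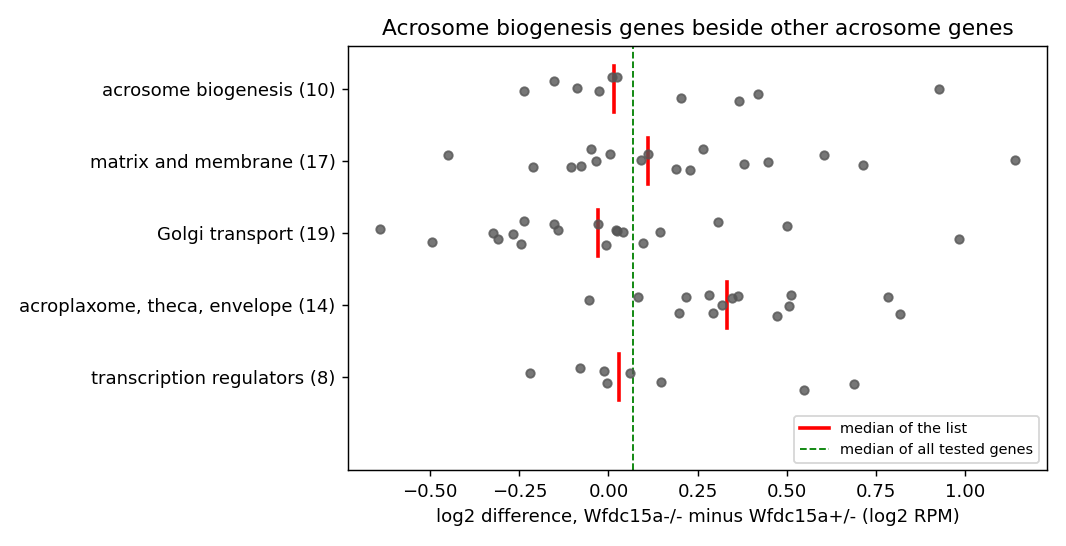
Log2 difference (Wfdc15a-/- minus Wfdc15a+/-, horizontal axis) of each tested gene (points) in the 10 acrosome biogenesis genes and in 4 lists of other acrosome genes, with the median of each list (red) and of all tested genes (dashed green, 0.07). The 14 genes of the acroplaxome, theca and envelope have the highest list median, 0.33, with 13 of 14 points above 0.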

How the data were processed

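The authors deposited log2 RPM values for 25965 genes in 4 libraries. Per the submitters' processing notes, reads were handled with HISAT2 2.1.0, Trim Galore 0.6.6 and FastQC 0.11.8 on the mm10 build. No counting tool or annotation is named there. Per the labels' protocols, Smart-seq2 with 15 PCR cycles kept neither strand nor molecular identifiers. The lowest value per library was taken as 0.9 of a read, after which 99.7% to 100.0% of other values were whole within 0.01 of a read. The 15888 genes that reached 1 RPM in 2 or more of the 4 libraries were tested on the deposited log2 values (limma 3.58.1, R 4.3.3), with a mean-variance trend, two-sided, adjusted p under 0.05. The code was tested on simulated data. Groups came from sample titles. Members and lists were chosen with earlier results of these data known. Of 127 list symbols, 119 matched as written and 8 by an older symbol. Named genes are Wfdc15a, the members and, per list of other acrosome genes, the 4 with the smallest p. Exons and transcripts are from GENCODE M21 and promoters from RefSeq (GRCm38.p6). The planned comparison of Zpbp and Zpbp2 proteins was not made and their transcripts were compared. Alternatives were median-ratio scaling, quantile normalization, log2(RPM + 1), no filter, a 5 RPM filter, no trend, voom, a replicate block and leaving out each library. Python 3.11.15, pandas 2.3.3, numpy 2.4.6, SciPy 1.17.1 and matplotlib 3.10.9 were used.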

Additional observations from a re-analysis of the deposited data

How the results depend on the processing

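No acrosome biogenesis gene passed in any of the 12 alternatives. Over all genes, 0 passed with the settings as reported, and 1 with log2(RPM + 1), 180 without a filter and 66 with the replicate block; leaving out 1 library gave 0 to 558 (442 without Wfdc15a+/- library 1, 558 without Wfdc15a+/- library 2, 5 without Wfdc15a-/- library 2). A fit that leaves out 1 library takes its spread from the libraries of the other genotype alone. The cause of these differing counts was not tested. Whether the replicate numbers pair the samples is not known. Deviations of same-numbered libraries correlated at r = -0.08 across genes (description only), and 2 libraries per genotype cannot settle it. Spaca1, Acrv1, Gopc, Agfg1 and Zpbp kept their sign in every alternative. Leaving out 1 library gave log2 differences of 0.36 to 0.47 for Spaca1, 0.17 to 0.56 for Acrv1, 0.64 to 1.22 for Gopc, 0.021 to 0.38 for Agfg1 and -0.42 to -0.052 for Zpbp. Signs turned for the others, with ranges of -0.24 to 0.19 for Dpy19l2, -0.11 to 0.13 for Pick1, -0.31 to 0.13 for Zpbp2, -0.34 to 0.035 for Acrbp and -0.041 to 0.088 for Spata16. Median-ratio scaling gave -0.051 for Pick1 and -0.037 for Spata16, quantile normalization 0.0095 for Dpy19l2, and voom 0.021 for Dpy19l2 and -0.023 for Pick1. Of the genes at p under 0.05 without adjustment, 76.9% were higher in Wfdc15a-/- libraries, against 65.6% with median-ratio scaling and 58.2% with quantile normalization. The other 17 named genes kept their sign throughout, but leaving out 1 library moved the log2 difference of 12 of them by over 1.5 times (9 without Wfdc15a+/- library 1, 7 without Wfdc15a+/- library 2, 4 without Wfdc15a-/- library 1 and 5 without Wfdc15a-/- library 2). The widest range among them was that of Actl9, 0.15 to 1.48. List medians near 0 changed sign: matrix and membrane genes to -0.0075 without Wfdc15a+/- library 1, Golgi transport genes to 0.021 without Wfdc15a+/- library 2 and transcription regulators to -0.032 with median-ratio scaling. Among the members, depth limits Gopc most, with 29 reads in its thinnest library, and Vps54 of the other named genes had 9.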
